A study of Homo sapiens with 6 samples.

Results

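Genes of the immediate early response were followed in lipid-loaded Huh-7 hepatoma cells: the transcription factors EGR1, KLF2, KLF4, KLF6, KLF10, NR4A1 and MYC, and the small nuclear or stress-response proteins IER2, IER3 and IER5. They were taken by symbol from the deposited gene table, in which each symbol had 1 row, giving 10 genes of 60605 listed. Huh-7 is a human hepatoma line that keeps many hepatocyte functions. All cells had been loaded with oleic acid (100 µM, 24 h) and starved before treatment. The control group received DMSO only (0 µM pectolinarigenin), and the treated group received 100 µM of the plant flavone pectolinarigenin for 24 h, with 3 libraries in each group. Neither a group without oleic acid nor an earlier time enters the comparison, and no label tells whether a group's libraries stem from separate cultures. The p-values therefore reflect spread between these libraries only, and this spread may be technical.

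Immediate early genes are switched on within minutes of a growth factor, stress or calcium signal, from factors already present in the cell, so that no new protein is needed. Their messenger RNAs are usually short-lived, and many carry AU-rich elements that mark them for decay. In liver and hepatoma cells they respond to mitogens, to the start of regeneration and to many kinds of injury. EGR1 and its relatives are zinc finger activators that bind GC-rich DNA. The Krüppel-like factors share a related zinc finger domain and bind GC-rich and CACCC sequences as activators or repressors. NR4A1 is an orphan nuclear receptor. MYC pairs with MAX to drive genes of growth and biosynthesis. Transcription of this class often runs through the serum response factor, which binds the CArG box, and through CREB, which binds the sequence TGACGTCA or its shorter core TGACG.

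The promoters of EGR1, IER2, IER5 and KLF2 are shown to set the gene with the largest rise beside others. IER2 and IER5 had a smaller rise, and KLF2 had lower values in treated cells, a fall that was not called. The letters are those of RefSeq on GRCh38.p14, on the strand of the gene, which is the plus strand for these 4. Capitals mark CArG boxes, TGACG on either strand (CGTCA on the other) and GCGNGGGCG, the site bound by EGR proteins.
EGR1, chr5:138465329-138465478: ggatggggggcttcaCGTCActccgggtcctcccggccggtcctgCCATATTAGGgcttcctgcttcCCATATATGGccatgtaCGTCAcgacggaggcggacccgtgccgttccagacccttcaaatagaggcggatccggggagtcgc
IER2, chr19:13150261-13150410: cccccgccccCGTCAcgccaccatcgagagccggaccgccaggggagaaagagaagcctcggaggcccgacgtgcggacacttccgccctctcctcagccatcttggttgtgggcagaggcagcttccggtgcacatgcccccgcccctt
IER5, chr1:181088550-181088699: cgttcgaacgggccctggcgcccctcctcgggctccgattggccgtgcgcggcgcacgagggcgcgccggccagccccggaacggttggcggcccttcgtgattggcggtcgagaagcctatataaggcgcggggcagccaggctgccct
KLF2, chr19:16324576-16324725: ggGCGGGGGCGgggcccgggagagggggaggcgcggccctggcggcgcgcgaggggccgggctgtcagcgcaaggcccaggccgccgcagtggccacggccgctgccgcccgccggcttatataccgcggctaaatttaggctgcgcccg

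The EGR1, IER2 and IER5 stretches cover the 150 bases just before the RefSeq start site, and the KLF2 stretch covers bases -250 to -101 from its start. Motifs were counted on both strands in windows of 300 bases (250 before the start and 50 after it) for EGR1, IER2, IER5, KLF2, KLF4, KLF6 and NR4A1, the 7 genes whose windows were searched. NR4A1 had more than 1 such window, and a gene is counted with a motif if any of its windows held it. EGR1 alone among these 7 held a CArG box. Its boxes read CCATATTAGG at bases -105 to -96 and CCATATATGG at bases -83 to -74, and 1.29% of 35116 RefSeq promoter windows hold at least 1. The full TGACGTCA was in no window of the 7 genes and in 1.85% of all windows. TGACG, a part of TGACGTCA, was in EGR1 (2 matches), IER2 (1) and KLF4 (2), against 24.6% of all windows. GCGNGGGCG was in EGR1 (1), KLF2 (2), KLF4 (1) and KLF6 (1), against 9.43% of all windows. CACGTG, a site bound by MYC with MAX, was in KLF4 and KLF6, against 7.26%. TGANTCA, the AP-1 site, was in none of the 7, against 7.71%. These matches describe letters in a short window, and a factor's binding was not measured here.

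Library totals ranged from 15140022 to 20311261 counts. The 9 hepatocyte markers examined, led by ALB, were present in every library, with a summed level of 12500 to 12700 FPKM in control and 9020 to 9810 FPKM in treated libraries. FPKM are counts scaled to the gene's length and the library's total. ALB and AFP made up most of this sum and fell unequally (log2 fold change -0.67, SE 0.066, and -0.34, SE 0.058). TTR changed by -0.14 (SE 0.055), and APOA1 did not pass (-0.13, SE 0.079, adjusted p = 0.194, edgeR). All hepatocyte markers except APOA1 were called lower, beside 25.3% of all tested genes. Of 10 markers of leukocytes, fibroblasts, endothelium and squamous epithelium, LUM, KRT5 and KRT14 had no count, and 2 (LYZ and PECAM1) reached a mean of 1 FPKM. Their sum was 42.3 to 42.7 FPKM in control and 54.1 to 77.9 FPKM in treated libraries, of which LYZ was the largest part. LYZ rose (log2 fold change 0.67, SE 0.1), whereas PECAM1 fell (log2 fold change -1.05, SE 0.1) and COL1A1, under the filter, had 27 to 35 counts in control and 10 to 15 in treated libraries. All 6 libraries are labelled as Huh-7 cells, and no label names another cell type. The part of these shifts in the results below was not tested. In bulk RNA fewer cells with a transcript and less of it per cell cannot be told apart.

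Pectolinarigenin-treated libraries had higher levels of 9 of the 10 genes, with no overlap between the groups, and lower levels of KLF2. The fall of KLF2 was not called (edgeR without the expression filter, adjusted p = 0.0558). Among the genes that passed the expression filter, treated values lay above all control values for 8 of the 10. Of all tested genes 33.5% did so, and in 25.4% treated values lay below all control values. EGR1 rose 7.21-fold and MYC 3.08-fold, while NR4A1, KLF6, IER2, KLF10, IER5 and IER3 rose by 1.52-fold to 1.96-fold. KLF4 rose 3.54-fold in a fit that kept low genes. All 8 genes that passed the expression filter (a mean of at least 1 FPKM over the 6 libraries) were called higher at an adjusted p under 0.05 (edgeR), where 25.3% of the 12829 tested genes were called higher and 25.3% lower. DESeq2 and limma also called all 8 higher. That 0 of them were lower, also at an unadjusted p under 0.05, follows from these calls and adds nothing to them. The median log2 fold change of the 8 was 0.87, against 0.00 over all tested genes. EGR1 and NR4A1 had control means under 1 FPKM (0.603 and 0.833) and passed the filter only through the treated libraries. For these 2 genes the filter itself favoured a rise, which limits the count and the median. A further limit is that the 10 genes were chosen with earlier results of these data known. The other 2 genes, KLF2 and KLF4, had means of 0.53 and 0.795 FPKM and were tested only without the filter, where 12% of 34374 genes were called higher and 10.8% lower.

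**Figure D1:**
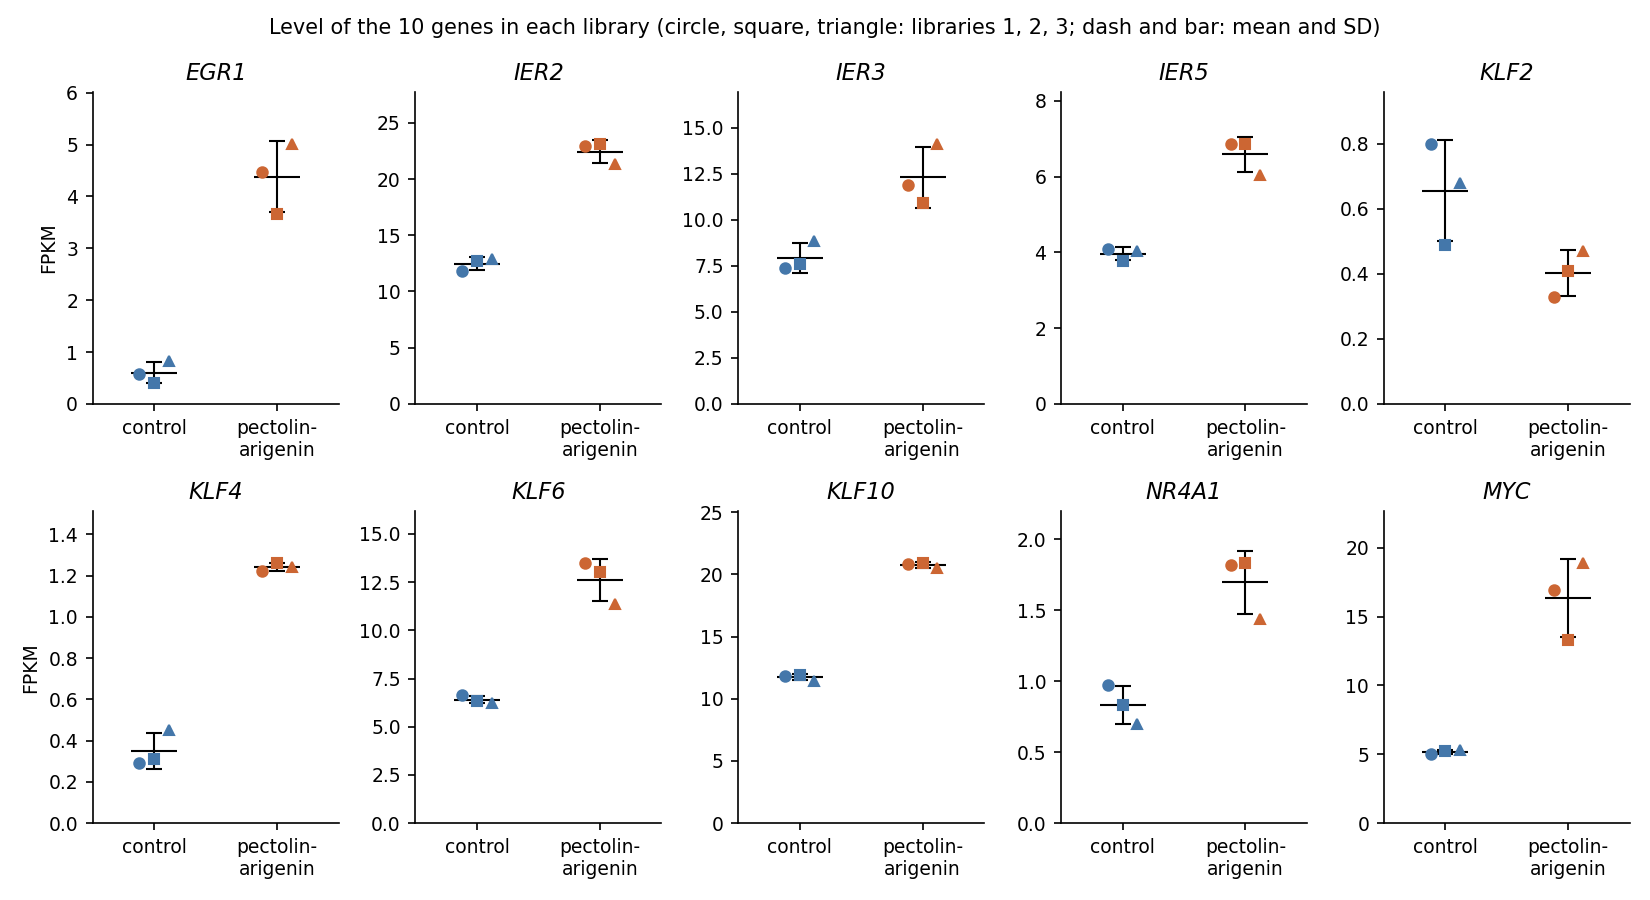
FPKM (vertical axes, each starting at 0) of the 10 genes in the 3 control (blue) and 3 pectolinarigenin (orange) libraries; dashes and bars give the mean and SD of each group. In 9 panels the treated libraries lie above all control libraries, and in the KLF2 panel they lie below them.

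EGR1 (ENSG00000120738, chromosome 5, 138465490 to 138469315 on GRCh38) encodes a zinc finger activator of early growth and stress programmes. Control libraries 1 to 3 had 34, 24 and 39 counts of it and treated libraries 1 to 3 had 225, 187 and 319, or 0.58, 0.41 and 0.82 FPKM against 4.47, 3.66 and 5.01 FPKM. The transcript was scarce in every control library, and the lowest treated library stood well above the highest control. The means were 0.603 ± 0.21 and 4.38 ± 0.68 FPKM (SD, n = 3 each), and the log2 fold change was 2.85 (SE 0.20, adjusted p = 4.36e-08, edgeR). Of the tested genes 30 had a larger log2 fold change. EGR1 passed the expression filter only through its treated libraries, so the filter that favoured a rise also limits this rank. Control libraries varied more for EGR1 than for any other of the 10 genes, with a coefficient of variation of 34.1%.

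The paralogs of EGR1 were scarce. EGR2 had 2, 0 and 1 counts in control and 8, 5 and 5 in treated libraries, a ratio per library total of 5.97 (exact 95% interval 1.74 to 31.6, for counting error only). It was under the expression filter and was called higher in the edgeR fit without it (adjusted p = 0.0293). EGR3 had 1 count in all libraries together and EGR4 had 0, so that neither level could be compared at this depth. NAB2, a co-repressor that EGR proteins themselves induce and that then restrains them, was at 6.83 ± 0.42 FPKM in control and 7.19 ± 0.2 FPKM in treated cells, and did not pass (log2 fold change 0.04, SE 0.084, adjusted p = 0.732). The co-repressor NAB1 fell by 0.17 on the log2 scale (SE 0.060, adjusted p = 0.032). Its call was lost without control library 1 (adjusted p = 0.164) or control library 2 (0.0805), without scaling factors (0.0888), without the expression filter (0.101) and in limma (0.109). Of the 5 listed partners 2 passed the filter, and 0 of these rose in edgeR, against 25.3% of all tested genes. The count was also 0 at an unadjusted p under 0.05 and 0 in DESeq2 and limma. Without the filter 1 rose, EGR2.

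Mean levels below are given with their SD (n = 3 each). Of 9 tested genes listed as EGR1 targets, 4 rose (44.4%) and 3 fell (33.3%), beside 25.3% of all tested genes in each direction, with a median log2 fold change of 0.04. THBS1, which encodes the matrix protein thrombospondin 1, rose from 0.993 ± 0.13 to 2.86 ± 0.61 FPKM (log2 fold change 1.49, SE 0.15). It passed the expression filter only through the treated libraries. FN1, which encodes fibronectin, fell from 425 ± 4.9 to 267 ± 25 FPKM (log2 fold change -0.71, SE 0.067). The growth factor gene PDGFA was at 5.22 ± 0.25 and 5.24 ± 0.35 FPKM (log2 fold change -0.04, SE 0.084, adjusted p = 0.746). NAB2 belongs to this list as well as to the partners.

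NR4A1 (ENSG00000123358, chromosome 12, 52022832 to 52059507) encodes the orphan nuclear receptor also known as NUR77. It had 132, 113 and 77 counts in control and 213, 218 and 213 in treated libraries, or 0.97, 0.83 and 0.70 FPKM against 1.82, 1.83 and 1.44 FPKM. All treated libraries were higher, with the smallest gap between treated library 3 and control library 1. The log2 fold change was 0.97 (SE 0.14, adjusted p = 4.56e-05), a 1.96-fold rise. Its paralog NR4A2 was at 3.46, 3.15 and 3.10 FPKM in control and 9.32, 10.34 and 8.76 FPKM in treated libraries. NR4A2 was therefore the more abundant receptor transcript per length in both groups, and it rose by 1.51 on the log2 scale (SE 0.088, adjusted p = 7.29e-09). NR4A3, the remaining paralog, stayed under the filter with 15, 11 and 10 control counts and 25, 32 and 44 treated counts.

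**Figure D2:**
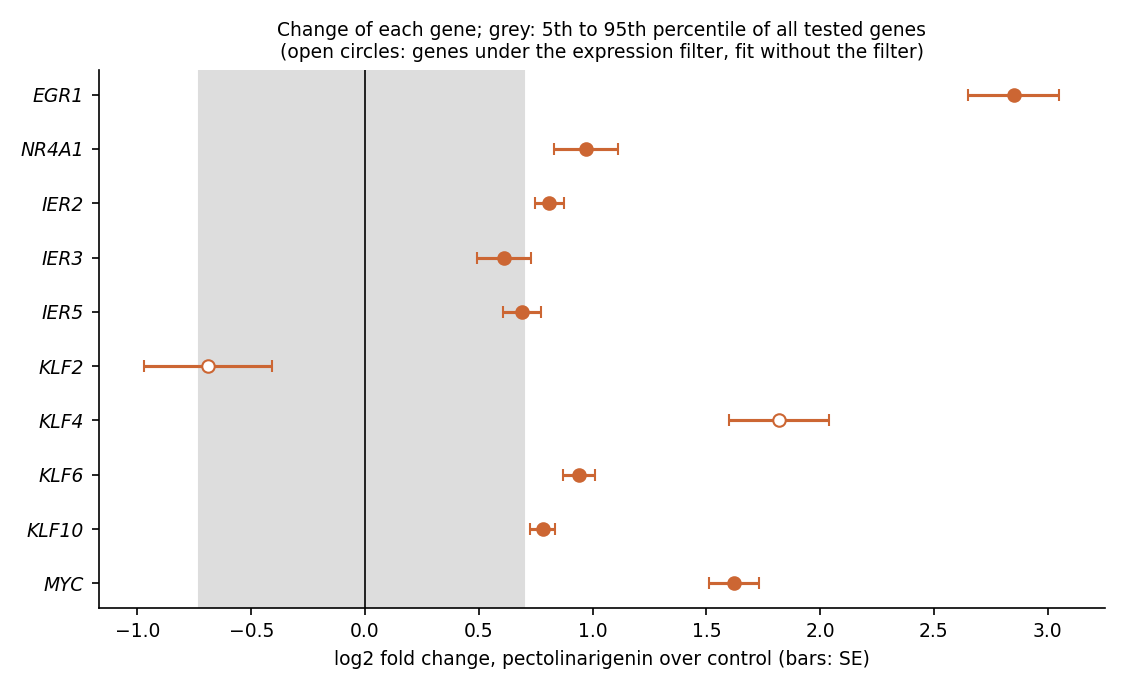
Log2 fold change (horizontal axis) with its SE for each of the 10 genes; grey marks the range from -0.73 to 0.70 that holds the 5th to 95th percentile of all tested genes, and open circles come from the fit without the expression filter. EGR1, KLF4 and MYC lie farthest to the right, IER3 and IER5 lie within the upper end of the grey range, and KLF2 is the gene below 0.

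The IER genes rose by similar, smaller amounts. IER2 (ENSG00000160888, chromosome 19, 13150415 to 13154908), a nuclear protein linked to transcription and cell movement, was at 11.79, 12.73 and 12.89 FPKM in control and 22.90, 23.12 and 21.30 FPKM in treated libraries. Its mean was the highest of the 10 transcripts per length in both groups, although KLF10 was above it in control library 1, and its log2 fold change was 0.81 (SE 0.064, adjusted p = 1.52e-07). IER5 (ENSG00000162783, chromosome 1, 181088712 to 181092899), a relative of IER2 that acts with heat shock factor 1, was at 4.10, 3.76 and 4.04 FPKM in control and 6.86, 6.85 and 6.04 FPKM in treated libraries. The groups were well apart, and the log2 fold change was 0.69 (SE 0.085, adjusted p = 1.05e-05). IER5L, the closest relative of IER5, was at 3.41, 4.15 and 4.05 FPKM in control and 8.16, 7.70 and 9.30 FPKM in treated libraries (log2 fold change 1.08, SE 0.11, adjusted p = 1.54e-06).

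IER3 (ENSG00000137331, chromosome 6, 30743199 to 30744554), also called IEX-1, influences cell survival and ERK and NF-kB signalling and is not related in sequence to IER2 and IER5. It was at 7.36, 7.58 and 8.86 FPKM in control and 11.86, 10.91 and 14.11 FPKM in treated libraries. Its rise was the smallest among the 8 tested genes (1.52-fold, log2 fold change 0.61, SE 0.12, adjusted p = 0.000622), and 872 tested genes had a larger log2 fold change. IER3 overlaps the antisense gene IER3-AS1, which had 5 to 13 counts in control and 3 to 6 in treated libraries. Since the strand setting of the counting is not given in the sources used here, reads of IER3 and IER3-AS1 cannot be told apart where they overlap, but the antisense counts were few beside the 181 to 387 of IER3. IER2 and NR4A1 also overlap antisense genes, which had 0 and at most 2 counts in any library, with the same limit.

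Of the Krüppel-like factors, KLF6, KLF10 and KLF4 rose, and KLF2 did not pass. KLF6 (ENSG00000067082, chromosome 10, 3775996 to 3785281), an activator of injury and growth-arrest genes, rose from 6.63, 6.35 and 6.25 FPKM in control to 13.48, 13.01 and 11.39 FPKM in treated libraries (log2 fold change 0.94, SE 0.069, adjusted p = 9.05e-08). KLF10 (ENSG00000155090, chromosome 8), a repressor first known as a TGF-beta-inducible gene, rose from 11.81, 11.93 and 11.44 FPKM to 20.85, 20.89 and 20.50 FPKM (log2 fold change 0.78, SE 0.057, adjusted p = 7.94e-08). KLF10 had the tightest treated group of the 10 genes, with a coefficient of variation of 1.03%.

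KLF4 (ENSG00000136826, chromosome 9, 107484852 to 107490482), a factor of epithelial differentiation and of reprogramming to pluripotency, had 20, 21 and 25 counts in control and 72, 75 and 92 in treated libraries. This is 0.29, 0.31 and 0.45 FPKM against 1.22, 1.26 and 1.24 FPKM, a low level at which the lowest treated library still had 2.71 times the FPKM of the highest control. Its log2 fold change without the expression filter was 1.82 (SE 0.22, adjusted p = 1.39e-14), and it stayed between 1.71 and 2.02 when libraries were left out in turn. That fit gave far smaller adjusted p-values than the filtered fit, for EGR1 6.93e-69 against 4.36e-08 (both edgeR). The adjusted p of KLF4 was 5.39e-05 without control library 3, and 3.6e-06 with the filterByExpr filter of edgeR. KLF2 (ENSG00000127528, chromosome 19, 16324817 to 16327874), best known from endothelium and resting lymphocytes, had 42, 26 and 29 counts in control and 15, 19 and 27 in treated libraries. The FPKM values were 0.80, 0.49 and 0.68 against 0.33, 0.41 and 0.47, so that the groups did not overlap but control library 2 and treated library 3 nearly met. The log2 fold change of KLF2 without the filter was -0.69 (SE 0.28, unadjusted p = 0.0129, adjusted p = 0.0558), which did not pass. It passed without control library 2 (-0.88, adjusted p = 0.0231) or treated library 3 (-0.87, adjusted p = 0.0381), and its adjusted p reached 0.335 without control library 1.

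Among 15 tested relatives from the KLF and SP families, 4 rose and 4 fell, with a median log2 fold change of 0.03. This is 26.7% in each direction, near the 25.3% of all tested genes. KLF11, the paralog closest to KLF10, was at 2.43, 2.30 and 2.27 FPKM in control and 4.31, 4.19 and 4.49 FPKM in treated libraries (log2 fold change 0.85, SE 0.092, adjusted p = 3.06e-06). SP1, a widely expressed activator of GC-rich promoters, fell from 27.9 ± 0.09 to 17.7 ± 2 FPKM (log2 fold change -0.70, SE 0.068, adjusted p = 1.08e-06). KLF9, a stress- and hormone-responsive repressor, fell by 0.19 on the log2 scale (SE 0.073) at an adjusted p of 0.045 and kept its call in 5 of 14 alternative analyses. The adjusted p of KLF9 was 0.153 and 0.148 without control library 1 or 3, and 0.0574 and 0.145 without treated library 1 or 3. KLF13 did not pass (log2 fold change 0.03, SE 0.076, adjusted p = 0.791). KLF5, with 0.50 (SE 0.061), KLF16, with 0.51 (SE 0.081), and KLF3, with 0.26 (SE 0.055), were the others that rose; they were named after their values were seen.

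MYC (ENSG00000136997, chromosome 8) encodes the helix-loop-helix factor that drives ribosome production, nucleotide synthesis and cell growth. It had 429, 450 and 368 counts in control and 1246, 991 and 1758 in treated libraries, or 5.03, 5.26 and 5.30 FPKM against 16.93, 13.27 and 18.88 FPKM. Control libraries were close together and treated libraries were spread by a factor of 1.42, and the lowest of them had 2.5 times the highest control value. The log2 fold change was 1.62 (SE 0.11, adjusted p = 2.95e-08), and 118 tested genes had a larger one.

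MYCN, the paralog best known from neuroblastoma, moved the other way. It was at 12.89, 13.57 and 12.40 FPKM in control and 5.24, 5.49 and 5.14 FPKM in treated libraries (log2 fold change -1.33, SE 0.081, adjusted p = 1.05e-08). MYCN was thus the more abundant of both transcripts per length in every control library, and MYC in every treated library. The ratio of MYC to MYCN FPKM was 0.39, 0.388 and 0.427 in control and 3.23, 2.42 and 3.67 in treated libraries. The mean log2 ratio was -1.32 ± 0.079 and 1.61 ± 0.31 (SD, n = 3 each), a difference of 2.93 with a 2-sided exact permutation p of 0.10, the smallest that 3 against 3 libraries allow. All treated libraries were above control for MYC and below it for MYCN. This p was thereby fixed in advance and adds nothing to the calls of both genes. The sum of both levels was 17.7 to 18.8 FPKM in control and 18.8 to 24.0 FPKM in treated libraries. MYCL, the third paralog, stayed under the filter with 39, 54 and 44 control counts and 75, 61 and 82 treated counts.

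**Figure D3:**
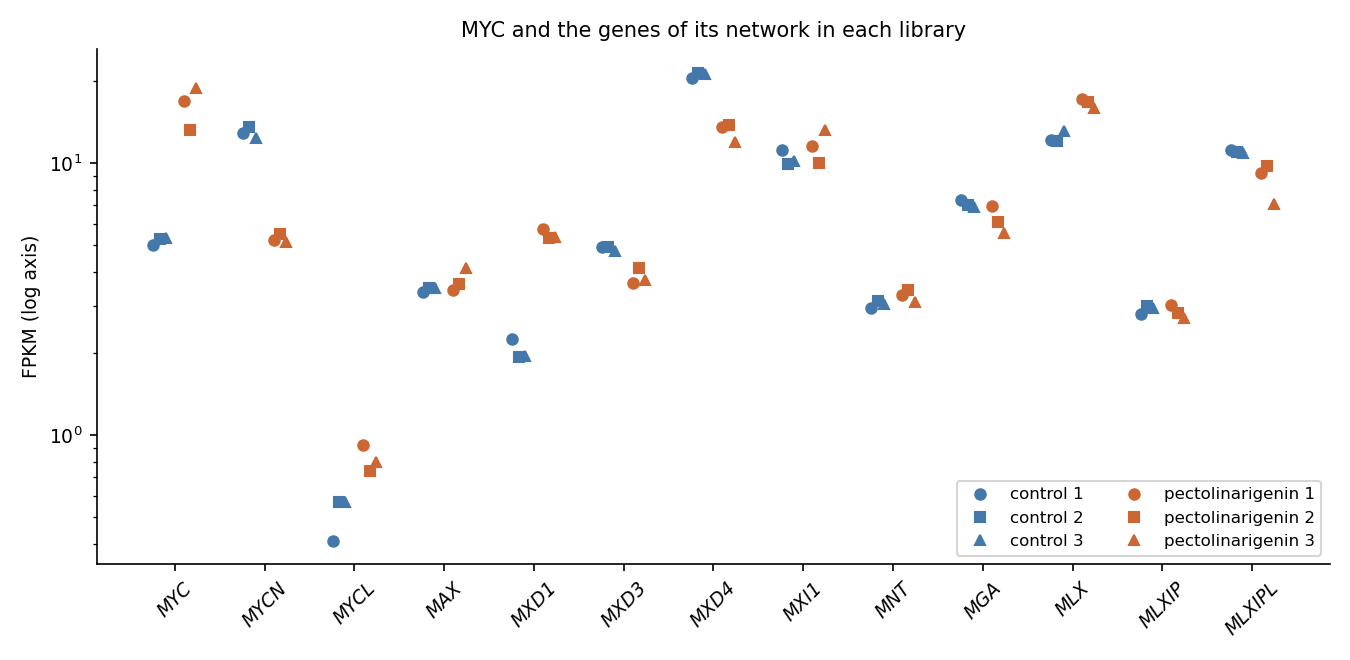
FPKM on a log axis of MYC and the 12 listed genes of its network in each control (blue) and pectolinarigenin (orange) library. MYC and MYCN exchange their order between the groups, and MXD1 rises where MXD4 falls.

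The genes of the MYC network changed unequally. MAX, the obligate partner, was at 3.44 ± 0.064 FPKM in control and 3.71 ± 0.36 FPKM in treated cells (SD, n = 3 each). Its log2 fold change was 0.07 (SE 0.089) with an adjusted p of 0.519. Of the 11 tested genes of the network 2 rose (18.2%) and 5 fell (45.5%), beside 25.3% of all tested genes in each direction. MXD1, a MAX partner that represses MYC sites, was at 2.26, 1.94 and 1.96 FPKM in control and 5.73, 5.31 and 5.34 FPKM in treated libraries (log2 fold change 1.37, SE 0.087, adjusted p = 1.8e-08). MXD4 and MXD3, repressors of the same family, had log2 fold changes of -0.73 (SE 0.061) and -0.39 (SE 0.081), and MLX, a partner shared with the glucose-sensing factors, rose by 0.38 (SE 0.060); these 3 were named after their values were seen.

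Of 17 tested genes that MYC is known to activate, 9 rose and 1 fell, with a median log2 fold change of 0.20. This is 52.9% called higher, against 25.3% of all tested genes. This list too was chosen with earlier results of these data known, which limits the comparison. SHMT2, the mitochondrial serine hydroxymethyltransferase, rose from 54.8 ± 3.3 to 101 ± 2.3 FPKM (log2 fold change 0.85, SE 0.059, adjusted p = 4.61e-08). The ribosome assembly gene RRS1 (0.90, SE 0.11) and the polyamine enzyme gene ODC1 (0.52, SE 0.060), both named after their values were seen, rose as well. SRM, the spermidine synthase, fell by 0.36 on the log2 scale (SE 0.11, adjusted p = 0.0167), and lost its call without control library 2 (adjusted p = 0.0595) or 3 (0.0958) or treated library 1 (0.0533) or 2 (0.056). FBL, the nucleolar methyltransferase fibrillarin, was at 0.01 (SE 0.071, adjusted p = 0.913). 

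Of 4 genes that MYC is known to repress, 2 rose (50%) and 1 fell (25%), beside 25.3% of all tested genes in each direction. The cell cycle inhibitor CDKN2B rose from 2.52 ± 0.082 to 5.71 ± 0.66 FPKM (log2 fold change 1.15, SE 0.11), and the inhibitor CDKN1A fell from 7.97 ± 0.74 to 4.98 ± 0.63 FPKM (log2 fold change -0.71, SE 0.11). NDRG1 did not pass (log2 fold change -0.12, SE 0.12, adjusted p = 0.414). Leaving out treated library 3 gave NDRG1 a log2 fold change of -0.34 and an adjusted p of 6.08e-06. Among 9 tested genes of MYC protein turnover, 4 rose and 4 fell (44.4% each), beside the same 25.3% of all tested genes. PIM1, a kinase that stabilises MYC, rose by 0.61 on the log2 scale (SE 0.073), and GSK3B, a kinase that marks MYC for degradation, changed by -0.51 (SE 0.058) on that scale. Without control library 1 the turnover genes that rose were 2.

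Of 21 tested kinases and factors that feed immediate early promoters, 5 rose (23.8%) and 7 fell (33.3%), shares near the 25.3% of all tested genes in each direction. Their median log2 fold change was -0.02, and 2 to 3 rose without control library 1, 2 or 3 or treated library 2. The serum response factor SRF rose by 0.22 (SE 0.069, adjusted p = 0.0137; 0.0538 without control library 1) and was named after its value was seen. CRTC2, a CREB coactivator, rose by 0.41 (SE 0.066, adjusted p = 0.000116), BRAF, a kinase upstream of ERK, fell by 0.50 (SE 0.078, adjusted p = 9e-05), and MAP2K1, the kinase that activates ERK, was at -0.00 (SE 0.069, adjusted p = 0.976). Kinase activity was not measured. Among 8 tested proteins that bind AU-rich elements 3 rose (37.5%) and 1 fell (12.5%), beside the same 25.3% of all tested genes. ZFP36, which speeds decay of such transcripts and is itself an immediate early gene, rose by 0.66 (SE 0.089), ZFP36L2 fell by 0.19 (SE 0.056), and HNRNPD was at -0.00 (SE 0.064, adjusted p = 0.977).

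Other immediate early genes rose in 14 of 17 tested cases, with 2 lower and a median log2 fold change of 1.11. This is 82.4% higher and 11.8% lower, against 25.3% of all tested genes in each direction. The list was chosen with earlier results of these data known, so these shares are not independent support. FOS, ATF3 and PLK2 had control means of 0.403, 0.613 and 0.437 FPKM and passed the expression filter only through the treated libraries, which favours a rise. The AP-1 subunit JUN rose 4.19-fold (log2 fold change 2.07, SE 0.066). SGK1, a kinase induced by serum and glucocorticoids, fell from 17.5 ± 0.57 to 8.71 ± 1 FPKM (log2 fold change -1.05, SE 0.071), and MCL1 was at 0.01 (SE 0.054, adjusted p = 0.926). Of the 10 genes described here 8 were tested and 2 of these rose at least 2-fold, as did 9 of the 17; 1.96% of all tested genes did so. SOCS3, the feedback inhibitor of cytokine signalling, was the other gene that fell (log2 fold change -1.77, SE 0.13) and was named after its value was seen.

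**Figure D4:**
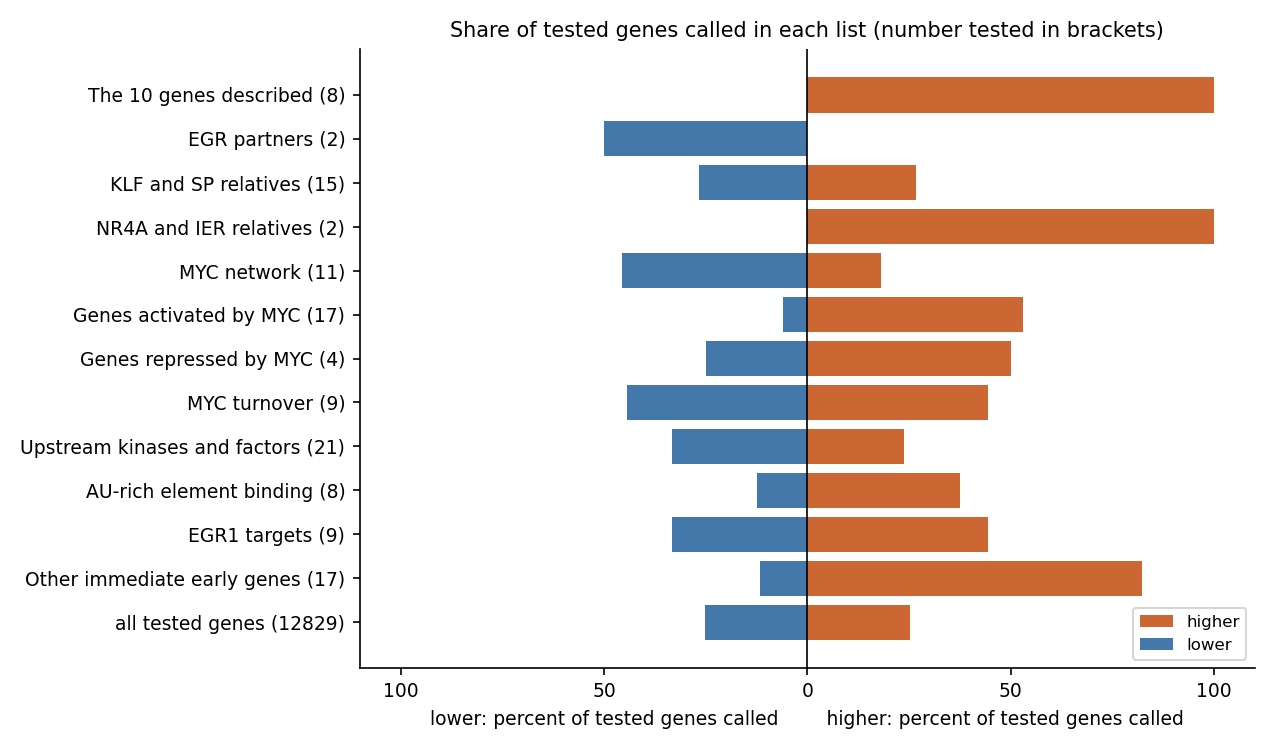
Percent of tested genes called higher (orange, to the right) and lower (blue, to the left) in each gene list, with the number tested in brackets and all 12829 tested genes at the bottom. The 8 tested genes described here and the other immediate early genes lean to the right, while the KLF and SP relatives, at 26.7% in either direction, resemble all tested genes. All lists were chosen with earlier results of these data known.

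The 10 transcripts kept much of their order of abundance. In control cells IER2 (12.5 ± 0.59 FPKM, SD, n = 3) and KLF10 (11.7 ± 0.26) overlapped at the top, followed by IER3 (7.93 ± 0.81), KLF6 (6.41 ± 0.20), MYC (5.20 ± 0.15) and IER5 (3.97 ± 0.18), with no overlap between these neighbours. NR4A1 (0.833 ± 0.14), KLF2 (0.657 ± 0.16), EGR1 (0.603 ± 0.21) and KLF4 (0.350 ± 0.087) followed, each overlapping the next. In treated cells IER2 (22.4 ± 0.99) and KLF10 (20.7 ± 0.21) no longer overlapped. MYC (16.4 ± 2.8) moved up to the third place, where its range met that of KLF6 (12.6 ± 1.1), which in turn met that of IER3 (12.3 ± 1.6). IER5 (6.58 ± 0.47), EGR1 (4.38 ± 0.68), NR4A1 (1.70 ± 0.22), KLF4 (1.24 ± 0.02) and KLF2 (0.403 ± 0.07) came last without overlap. How the authors defined gene length is not given in the sources used here, so the order rests on their lengths.

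Treated library 3 divided the 10 genes. In the TMM-scaled log2 CPM (counts relative to the scaled library total), MYC, KLF2, IER3 and EGR1 were higher in treated library 3 than in the mean of treated libraries 1 and 2, by 0.36, 0.36, 0.34 and 0.33. NR4A1, KLF6, IER5 and IER2 were lower there, by -0.32, -0.19, -0.16 and -0.09, and KLF4 and KLF10 differed by 0.02 and -0.00. The range from the 5th to the 95th percentile of all tested genes ran from -0.45 to 0.37, so that no gene of the 10 stood outside it. The 8 tested genes remained higher when treated library 3 was left out.

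**Figure D5:**
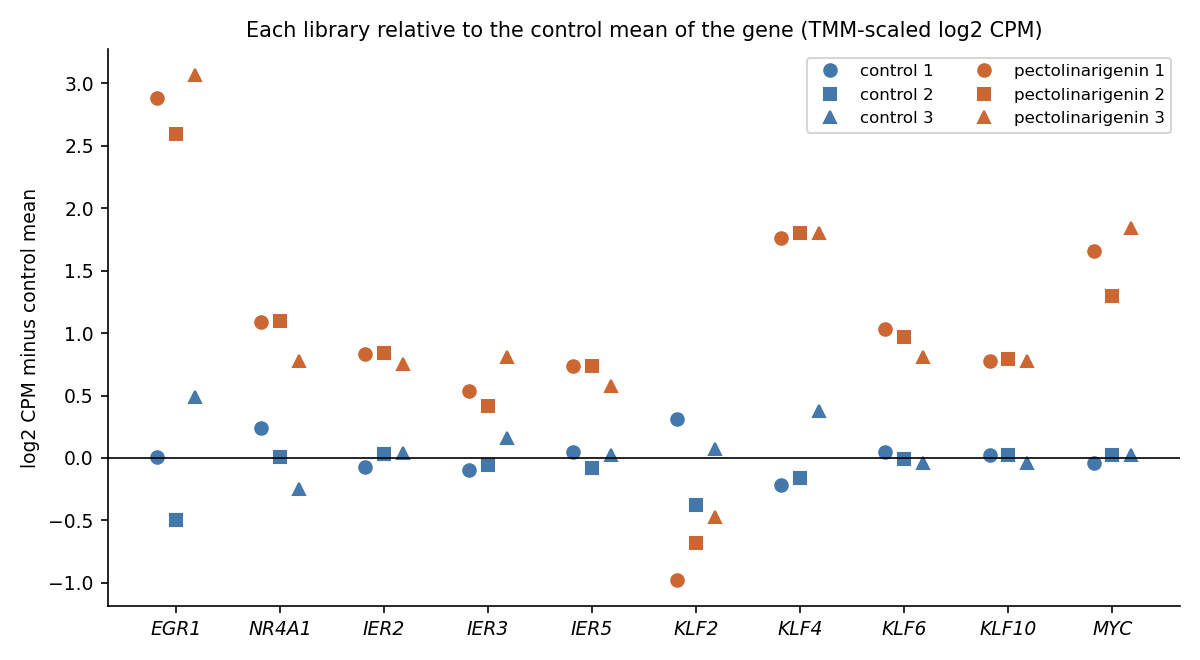
TMM-scaled log2 CPM of each library minus the mean of the control libraries of the gene, for control (blue) and pectolinarigenin (orange) libraries 1 to 3 (circle, square, triangle). The treated triangle is the highest treated point for EGR1, IER3, KLF2 and MYC and the lowest for NR4A1, IER2, IER5 and KLF6.

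The genes whose profile over the 6 libraries lay nearest to the median profile of the 8 tested genes were PIM3, ZBED6CL, TIPARP, ADM2 and ZNF480, with Euclidean distances of 0.103, 0.111, 0.126, 0.148 and 0.15 in gene-centred log2 CPM. Their log2 fold changes were 0.83, 0.86, 0.81, 0.93 and 0.92. KLF6 lay at 0.0946 from that median profile, KLF10 at 0.161 and IER2 at 0.172, whereas MYC lay at 0.989 and EGR1 at 2.53. With only 2 groups such nearness mostly reflects a rise of the same size.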

How the data were processed

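Per the labels' protocols, TRIzol was used for RNA extraction and the VAHTS Universal V8 RNA kit for libraries. The submitters' processing notes name cutadapt 1.9.1, HISAT2 2.0.1, HTSeq 0.6.1 and the build GRCh38. Strandedness of the counting, the gene annotation's release and how shared reads were handled were not given in the sources used here. Raw counts and FPKM values, made by the authors for each library, are what the deposited table holds.

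Counts were tested in R 4.3.3 with edgeR 4.0.16 (quasi-likelihood), using TMM factors, no covariate, 2-sided p-values and Benjamini-Hochberg adjustment over the 12829 genes with a mean of at least 1 FPKM; SE were derived from the F statistic. The threshold was an adjusted p of 0.05. The test was also run on simulated counts with 1 uniform dispersion and few changed genes. That setting is unlike these data, so the run does not vouch for the calls made here. DESeq2 1.42.0 and limma 3.58.1, on log2(FPKM + 1) and log2(FPKM + 0.1), were alternatives, with other scalings, filters, libraries left out and a replicate block. The 10 genes and the gene lists were chosen with earlier results of these data known. Named genes were all 10, each list's called gene with the smallest p in each direction and uncalled gene with the largest p, fixed paralogs, and the 5 nearest profiles; a gene this rule picks is not reported here. Positions are from GENCODE 29 on GRCh38. The chi-square per degree of freedom was 1.5 to 2.56 between control libraries and 4.1 to 9.85 between treated libraries, so no pair agreed within sampling noise. Treated libraries thus differed more from each other than control libraries did, while edgeR fitted a shared dispersion per gene for both groups.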

Additional observations from a re-analysis of the deposited data

How the results depend on the processing

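The 8 tested genes kept their direction and call in every one of the 14 alternatives in which they were tested. With the filter at a mean of 5 FPKM, 4098 genes were called in all, 2088 higher and 2010 lower, against 6486, 3243 and 3243. On log2(FPKM + 1), a scale that shrinks low genes, limma gave 1.75 for EGR1 and 0.56 for NR4A1. IER3 ranged from 0.48 to 0.69 and MYC from 1.47 to 1.75 over their alternatives. The fits of KLF2 and KLF4 with libraries left out, and with the filterByExpr filter of edgeR (adjusted p = 0.0503 for KLF2 and 3.6e-06 for KLF4), were chosen after seeing the data. Of 308 counts of single lists under alternatives, 25 moved by over 1.5 times. The libraries share only replicate numbers: deviations of same-numbered libraries correlated at -0.02 to 0.03, and a replicate block gave 3249 higher and 3291 lower genes. Counts of 15 to 42 per library limit KLF2, and 0 to 8 limit EGR2.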
